A study of Mus musculus and Rattus norvegicus with 37 samples.

Results

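H19 and 9 genes of fetal liver or of imprinted loci (Igf2, Igf2r, Afp, Gpc3, Dlk1, Meg3, Peg3, Plagl1 and Zhx2) were followed through the liver RNA-seq of 21 mice and 16 rats. The 10 genes were found by their symbols, and all 10 had an entry among the 47929 named genes of each mouse table, while 8 of them had one among the 28026 named genes of each rat table (H19 and Meg3 were not analysed here in rats). H19 was chosen by its normalized counts, higher with LNA29 than with saline in both mouse tables, so its mouse values are described below without a test. The other genes were taken for their known ties to H19, to imprinting or to the fetal liver, with earlier results of these data already known.

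LNA29 is a pair of locked nucleic acid inhibitors, against miR-29a and against miR-29b/c, given to female mice in 1 subcutaneous injection of 20 mg/kg each, and saline was the control. Livers were taken from fed mice on day 7. The WT/Floxed group pooled wild-type C57BL/6J mice of 9 to 11 weeks (4 LNA29, 3 saline) with floxed mice of 15 to 20 weeks that carried the conditional Sirt1 allele without the liver deletion (4 LNA29, 2 saline, after the authors left out 1 floxed saline mouse). Their littermates with a liver deletion of Sirt1 carry the label L-Sirt1 KO (4 LNA29, 4 saline). Sirt1 itself was counted at 535 to 617 normalized counts under that label and at 492.7 to 699 in WT/Floxed libraries, and the former are called KO-labelled mice. A gene-level count also takes in exons outside a conditional deletion, so it does not check the genotype, and the study's separate RT-qPCR of hepatic Sirt1 was not analysed here. The rats were male: obese Zucker Fatty rats (ZFR, fa/fa) and Zucker Lean rats (ZLR) of 5.5 months, 4 each, and ZFR of 3 months given daily intraperitoneal BT2 at 20 mg/kg, or its DMSO vehicle, for 1 week, 4 each. BT2 inhibits the kinase of branched-chain ketoacid dehydrogenase.

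Imprinted genes are read mainly from the allele of 1 parent. H19, a long noncoding RNA, and Igf2, a fetal growth factor, are neighbours read from opposite parental alleles under a shared imprinting control region. Both are abundant in fetal liver and are largely silenced there after birth, as are Afp, the main plasma protein of the fetus, and Gpc3, a cell-surface glypican, while Zhx2 is a repressor that keeps H19, Afp and Gpc3 low in adult mouse liver. The miR-29 family represses mRNAs through sites that pair with its seed, and collagen and DNA methyltransferase mRNAs are among its known targets.

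The 3 inhibited miRNAs are shown because they share a seed (bases 2 to 8, capitals), and the 2 miRNAs cut from H19 because they do not have it.
mmu-miR-29a-3p: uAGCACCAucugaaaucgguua
mmu-miR-29b-3p: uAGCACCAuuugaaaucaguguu
mmu-miR-29c-3p: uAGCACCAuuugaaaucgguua
mmu-miR-675-5p: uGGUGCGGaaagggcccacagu
mmu-miR-675-3p: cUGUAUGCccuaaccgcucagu
The sequences are those of RefSeq on GRCm38.p6. miR-29a-3p lies at chr6:31062673-31062694 on the minus strand, and miR-29c-3p at chr1:195037600-195037621 on the plus strand. Identical copies of miR-29b-3p lie at chr6:31063025-31063047 on the minus strand and at chr1:195037091-195037113 on the plus strand. Mir675 lies within H19 on the minus strand, with its 5p arm at chr7:142577112-142577133.

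H19 (ENSMUSG00000000031) spans chr7:142575529-142578143 on the minus strand of GRCm38 in GENCODE vM21, and 72623 bases separate it from Igf2. Letters that match the miR-29 seed (TGGTGCT, searched on the transcribed strand only) occurred 1 time in H19-202, the longest annotated H19 RNA at 2286 bases, and in 5 of the 7 annotated H19 RNAs. The match lay in an exon at chr7:142576321-142576327 and was followed by an A, which makes the 8-base form TGGTGCTA. It is shown with 11 bases on either side.
H19: gatgaaagaaaTGGTGCTacccagctcat
Meg3, the maternally expressed noncoding RNA of the Dlk1 domain, held the same 7 letters 4 times in its longest RNA of 14548 bases and the 8-base form 0 times. The last of them, close to the end of the RNA at chr12:109571693-109571699 on the plus strand, reads as follows.
Meg3: ctagtggctcaTGGTGCTttcaataaatt
In the longest annotated 3′ UTR of each of the 8 coding genes (Igf2, Igf2r, Afp, Gpc3, Dlk1, Peg3, Plagl1 and Zhx2) there were 0 matches. Of 351 noncoding genes with an RNA of 1800 to 2800 bases, 22.2% held the 7 letters and 4.56% the 8-base form, 6 of 8 noncoding genes of at least 10000 bases held the 7 letters, and 15.4% of 13484 genes with a 3′ UTR did. A match of letters is a description and was not tested as a site.

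On the same build Igf2 lies at chr7:142650766-142666816 and Peg3 at chr7:6703892-6730431, both on the minus strand of the chromosome that carries H19. Igf2r lies at chr17:12682406-12769664 and Gpc3 at chrX:52272426-52613950, on the minus strand. Afp (chr5:90490737-90508907), Plagl1 (chr10:13060504-13131694) and Zhx2 (chr15:57694665-57839832) lie on the plus strand. Dlk1 (chr12:109452823-109463336) and Meg3 (chr12:109541001-109571726) share a strand and an imprinted domain and are 77665 bases apart.

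H19 was higher in every LNA29-treated mouse than in any saline-treated mouse of the same genotype label. In WT/Floxed mice the 5 saline libraries held 18.5, 20.4, 21.8, 30.3 and 40.3 normalized counts, and the 8 LNA29 libraries ran from 61.9 to 151 with a median of 93.9. LNA29 livers averaged 97.7 ± 25.8 (SD, n = 8) and saline livers 26.3 ± 9.04 (SD, n = 5), a ratio of 3.72 and a log2 fold change of 1.87 with an SE of 0.22. A normalized count is the authors' estimated read count after division by a library factor, and log2 fold changes here are differences of mean log2(normalized count + 1). The difference was about the same in each background, at 1.84 in the 7 wild-type and 1.86 in the 6 floxed mice. By size of rise H19 stood at place 8 among the 12876 genes whose mean exceeded 50 normalized counts. Of all genes tested, 0.942% were higher with LNA29 without overlap.

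Saline libraries of KO-labelled mice held 26.9, 37.6, 43.5 and 74.5 normalized counts of H19 and LNA29 libraries 79.0, 159, 275 and 442. The lowest LNA29 library of these lay just above the highest saline library, and the LNA29 libraries differed more among themselves than those of WT/Floxed mice. The means were 239 ± 157 (SD, n = 4) and 45.6 ± 20.4 (SD, n = 4), a ratio of 5.23, a log2 fold change of 2.19 with an SE of 0.50, and place 13 of 12913 genes by size of rise. Here 3.65% of all genes tested were higher without overlap. The difference between both responses was 0.31 with an SE of 0.51 on the log2 scale, and it was not tested. Within the runs named by the sample descriptions the log2 difference of H19 was 2.16, 1.91 and 1.84 for WT/Floxed mice. For KO-labelled mice it was 3.18, 0.85 and 1.80, where a run held 1 or 2 libraries per group.

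**Figure D1:**
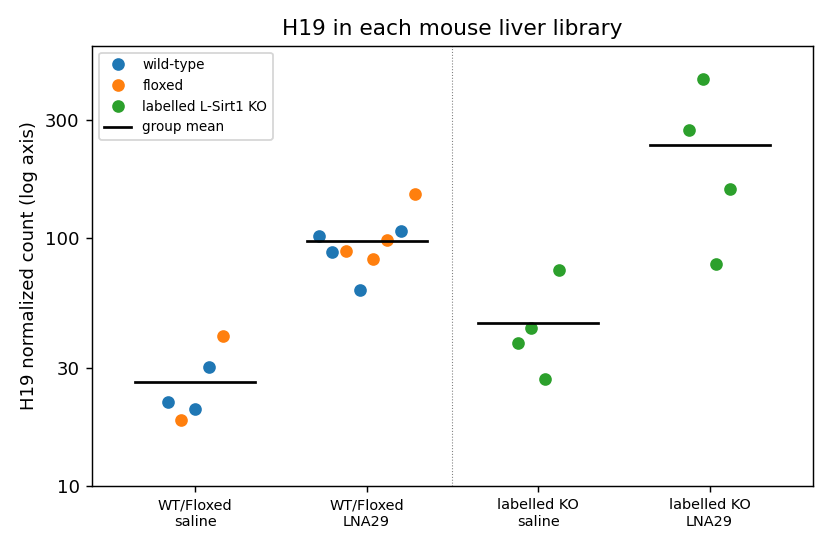
H19 normalized count (log axis) in each of the 21 mouse liver libraries by group, with points coloured by background and lines at the group means. All 8 WT/Floxed LNA29 libraries (61.9 to 151) sit above the 5 saline libraries (18.5 to 40.3), and the 4 KO-labelled LNA29 libraries (79.0 to 442) above their 4 saline libraries (26.9 to 74.5).

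H19 stays active in adult skeletal muscle, and markers of that tissue were high in some libraries. The summed level of 8 muscle markers (among them Mylpf, Acta1, Ckm and Myh4) differed between the WT/Floxed groups. It was 22.2, 49.2, 50.4, 53.1, 62.1, 73.5, 77.4 and 419 normalized counts with LNA29 against 32.6 to 44.9 with saline. All but the lowest LNA29 library lay above every saline library, and the part of this difference in the H19 values was not tested. Mylpf, named after its values were seen, made up most of each saline sum. It held 22.2 to 74.7 with LNA29 (mean 48.7) against 26.45 to 41.8 with saline (mean 32.9). It was not called (log2 fold change 0.49, limma adjusted p = 0.442). Of the 8 markers 2 were tested there, and Acta1 had a log2 fold change of -0.17. The rest lay under the minimum mean. In the lowest LNA29 library 7 of the 8 were at 0. The library at 419 held 88.8 of H19. In the KO-labelled LNA29 libraries the sum was 29.1, 38.1, 50.1 and 2970, and the last of these held 275 of H19, against 38.0 to 49.2 with saline. Without the libraries at 419 and 2970 the H19 means were 98.9 against 26.3 (ratio 3.77) and 227 against 45.6 (ratio 4.97). Sums of other markers differed with LNA29 in KO-labelled mice: 8 Kupffer cell markers summed to 13363 to 16434 against 16591 to 19840, 8 markers of sinusoidal endothelium to 12322 to 13753 against 13917 to 15230, and 6 proliferation markers to 586 to 1093 against 450 to 534. Of these lists 2 of 8 (Vsig4 and Clec4f), 2 of 8 (Lyve1 and Stab1) and 1 of 6 genes (Top2a) were called. The median log2 fold changes of these lists were -0.34, -0.068 and 0.76. Lyve1 (-1.17) and Stab1 (-0.53) were thus far from the median of the endothelial list. The sums of these lists overlapped between the WT/Floxed groups, Lyve1 fell there too (log2 fold change -0.51, limma adjusted p = 0.165), and all but 1 of the 8 Kupffer markers had negative values (median -0.47) with 0 called. The part of these markers in the H19 values was not tested. In bulk tissue, fewer cells of a type and less RNA per cell cannot be told apart. All 8 hepatocyte markers were above 0 in all 37 libraries.

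The 3 small genes that share exonic bases with H19 (Mir675 on the same strand, Gm27483 and Gm27786 on the opposite strand) were listed at 0 in every mouse library, and poly(A)-selected libraries of this kind do not capture mature miRNAs. Of the genes near H19, 3 were tested in WT/Floxed mice and 5 in KO-labelled mice, and 0 were called in either. Airn, Ctcf and Mrpl23, given here although they were not called, were chosen after their values were seen. Mrpl23, which encodes a mitochondrial ribosomal protein next to H19, had a log2 fold change of -0.13 (SE 0.18) in WT/Floxed mice and 0.73 (SE 0.25, limma adjusted p = 0.319) in KO-labelled mice.

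Of the 8 other members tested in mice, 1 was called in WT/Floxed mice (Peg3) and 0 in KO-labelled mice. A call asked for a limma p under 0.05, an adjusted p under 0.2 (Benjamini-Hochberg over all genes tested), a mean over 50 normalized counts and over 1.2-fold change. Igf2 and Meg3 in both genotypes, and Afp in KO-labelled mice, had means under 50 and so could not be called. The same holds for some genes of the wider lists below. In WT/Floxed mice 4.35% of 15811 genes were called (2.42% as higher), and for KO-labelled mice it was 1.87% of 15885. A single call among 8 members is too few to read against these shares. Dlk1, the transmembrane Notch-like ligand of fetal liver, stayed under the minimum mean of 10 normalized counts, with 0 to 4.44 in every mouse library.

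Igf2, which shares its control region with H19, could not pass, since its mean lay under 50 normalized counts in both genotypes. By limma it had adjusted p = 0.983 and 0.916. Its values were 25.5 to 44.1 (median 29.4) with LNA29 against 20.46, 25.01, 28.3, 51.5 and 52.8 with saline in WT/Floxed mice. KO-labelled mice held 19.4, 27.1, 53.4 and 56.1 against 13.6, 18.1, 59.1 and 59.1. The groups overlapped throughout. The log2 fold changes were -0.02 (95% interval -0.56 to 0.52) and 0.21 (-1.01 to 1.42), and the second interval is wide.

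Igf2r, the paternally silenced receptor that clears IGF2, was among the most tightly measured members and overlapped between groups in both genotypes. WT/Floxed LNA29 livers averaged 1895 ± 414 (SD, n = 8) and saline livers 1814 ± 195 (SD, n = 5), and 1908 ± 280 and 1859 ± 170 (SD, n = 4 each) in KO-labelled mice. The log2 fold changes were 0.04 (95% interval -0.23 to 0.32) and 0.03 (-0.23 to 0.29). Airn, the antisense RNA that silences Igf2r on the paternal allele and shares no exonic base with it, had 18.4 against 23.9 and 24.7 against 24.9 normalized counts and was not called.

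Of 17 genes of the insulin-like growth factor axis (receptors, binding proteins, adaptors and lysosomal enzymes sorted by Igf2r), 1 rose in WT/Floxed mice and 3 in KO-labelled mice, with 0 falling. Over all genes 4.35% and 1.87% were called. Igfbp2, a binding protein for both IGFs, rose in each: 55260 ± 9178 against 33300 ± 7998 (log2 fold change 0.74, SE 0.14, adjusted p = 0.0195, limma) and 49580 ± 6949 against 33800 ± 4219 (0.55, SE 0.13, adjusted p = 0.148, limma). Igfbp1, the insulin-repressed binding protein, and Irs2, an adaptor of the insulin receptor, rose in KO-labelled mice by 1.19 (SE 0.21) and 0.94 (SE 0.23). In WT/Floxed mice their values were 1.43 (SE 0.67) and 0.87 (SE 0.30), which did not pass. The median of the 17 was -0.0037 and 0.02, against 0.0017 and -0.0027 over all genes.

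Afp and Gpc3 are the other targets of Zhx2 repression, and neither passed in either genotype. In KO-labelled mice Afp could not, since its mean lay under 50 normalized counts. Afp held 42.6 to 97.0 (median 68.8) normalized counts with LNA29 against 49.97, 67.9, 68.9, 73.7 and 77.4 with saline in WT/Floxed mice. KO-labelled mice held 29.2, 40.5, 61.7 and 62.3 against 28.9, 42.4, 66.8 and 67.8. The log2 fold changes were 0.04 (95% interval -0.40 to 0.48) and -0.07 (-0.84 to 0.70), and the groups overlapped. Gpc3 varied more between mice, from 33.6 to 215 with LNA29 against 48.9 to 98.1 with saline in WT/Floxed mice, and its log2 fold changes were 0.16 (-0.64 to 0.95) and -0.03 (-0.91 to 0.86). The 4 other glypicans tested gave 0 calls in each genotype.

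Zhx2 itself overlapped between groups. WT/Floxed livers held 529 to 1358 under LNA29 against 706 to 1550 under saline, and KO-labelled livers 674 to 1643 against 602 to 1160. It had log2 fold changes of -0.31 (95% interval -0.84 to 0.22) and 0.31 (-0.36 to 0.98), neither of which passed. Its values are coarse. In 10 of 13 WT/Floxed libraries they were whole multiples (within 0.01) of a step worth 260 estimated reads, and in 6 of 8 KO-labelled libraries of a step worth 265, so a library held 2 to 7 steps and a difference of 1 step was a large part of the level. Of 16 other regulators of Afp or of the fetal liver program, Foxa3, a forkhead factor of adult hepatocytes, rose in WT/Floxed mice (3068 ± 635 against 1872 ± 522, log2 fold change 0.73, SE 0.18) and Nr5a2, the nuclear receptor LRH-1, fell by 0.32 (SE 0.09). In KO-labelled mice, of 15 tested, Cebpa, a factor of hepatocyte maturation, fell by 0.49 (SE 0.12) and 0 rose. These calls are too few to read against the 4.35% and 1.87% of all genes called. The 3 relatives of Afp at the albumin locus (Alb, Afm and Gc) gave 0 calls in either genotype. Of 26 fetal or oncofetal genes outside the members (such as Hmga1, Sox4, Epcam and Igf2bp2), 15 were tested in each genotype and 0 were called, with a median log2 fold change of -0.03 and -0.05.

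Peg3, a paternally expressed zinc finger protein, was higher with LNA29 in WT/Floxed mice. The saline libraries held 328, 349, 354, 419 and 462 normalized counts and the LNA29 libraries 415 to 912 (median 685), so that 7 of 8 LNA29 libraries lay above every saline library. The means were 662 ± 182 (SD, n = 8) and 382 ± 56.0 (SD, n = 5), a log2 fold change of 0.75 with an SE of 0.18 (limma adjusted p = 0.0609, exact two-sided permutation p = 0.00544). The rise was 0.73 in wild-type and 0.75 in floxed mice, and 0.53, 0.53 and 1.23 within the 3 runs. Tested on 4 and 3 wild-type mice alone or 4 and 2 floxed mice alone, it did not pass, with limma adjusted p = 0.452 and 0.23.

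Peg3 did not pass in KO-labelled mice. The saline libraries split into 163 and 173 against 432 and 557, and the LNA29 libraries of 188, 272, 321 and 388 lay between them, for a log2 fold change of -0.02 (95% interval -0.93 to 0.89). The difference between the responses was -0.77 (SE 0.43, limma adjusted p = 0.608), so a difference between the genotype labels was not shown. Of the 8 members tested for such a difference 0 passed an adjusted p under 0.2, as 0.0449% of 15601 genes did (7 genes by limma, with 1426 at an unadjusted p under 0.05). Between floxed and wild-type mice, whose ages also differ, 0 of these 8 members differed at an adjusted p under 0.05, where 5.66% of 15811 genes did.

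**Figure D2:**
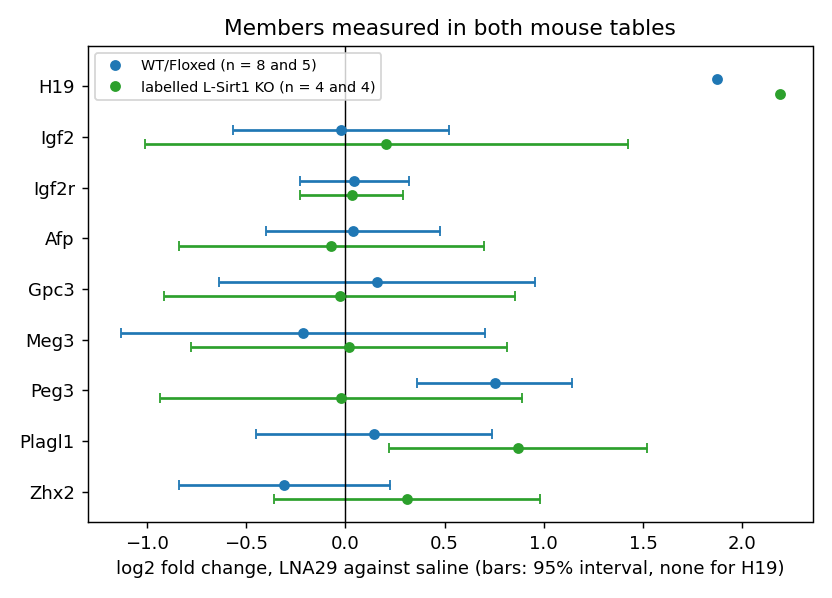
Log2 fold change of LNA29 against saline for 9 members, with 95% intervals for the 8 that were tested and none for H19, which is described only, in WT/Floxed mice (blue) and KO-labelled mice (green). H19 stands at 1.87 and 2.19, Peg3 at 0.75 and -0.02 and Plagl1 at 0.14 and 0.87, while the intervals of the other 6 include 0 in both.

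Plagl1, an imprinted zinc finger gene that acts on other imprinted genes, did not pass in either genotype. KO-labelled mice held 72.3, 83.6, 128 and 144 with LNA29 against 35.003, 60.1, 64.7 and 71.0 with saline, higher without overlap, as were 3.65% of all genes tested there. The log2 fold change was 0.87 (SE 0.29, limma adjusted p = 0.302), and it was not called. The exact permutation p of 0.0286 is the smallest that 4 against 4 libraries can give. In WT/Floxed mice it was 0.14 (SE 0.28), with 43.0 to 129 against 46.5 to 90.9.

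Meg3 held 18.5 to 73.4 (median 30.7) with LNA29 and 10.5 to 67.5 with saline in WT/Floxed mice, and 18.01 to 51.5 against 24.0 to 46.8 in KO-labelled mice. Its log2 fold changes were -0.21 (95% interval -1.13 to 0.71) and 0.02 (-0.78 to 0.81), and with means under 50 it could not be called. Among 49 other imprinted genes 36 were tested in each genotype. In WT/Floxed mice 0 rose and 2 fell, where 4.35% of all genes were called, so the count is near that share. Impact, a regulator of translation, went from 618 ± 78.5 to 454 ± 43.4 normalized counts (log2 fold change -0.44, SE 0.10). Snurf went from 75.4 ± 17.9 to 48.6 ± 12.2 (-0.63, SE 0.20), and it shares a transcript with Snrpn so that their reads are hard to assign. None of the 36 passed in KO-labelled mice, where 1.87% of all genes were called. The medians of the 36 were 0.02 and 0.06.

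Some genes that set, keep or remove DNA methylation and imprints rose in both genotypes. Their list was chosen with earlier results of these data known. Of 16 tested, 3 rose in WT/Floxed mice and 5 in KO-labelled mice, and 0 fell, where 4.35% and 1.87% of all genes were called. The median log2 fold change of the 16 was 0.11 and 0.22, against 0.0017 and -0.0027 over all genes. Dnmt3b, a de novo DNA methyltransferase, rose from 257 ± 112 to 555 ± 119 normalized counts (log2 fold change 1.21, SE 0.25) and from 150 ± 62.5 to 579 ± 75.2 (2.05, SE 0.31). Tdg, the glycosylase of active demethylation, rose by 0.78 (SE 0.10) and 0.70 (SE 0.11), and Tet3, a methylcytosine dioxygenase, by 0.68 (SE 0.12) and 0.76 (SE 0.12). Dnmt3a, the other de novo methyltransferase, and Uhrf1, which guides maintenance methylation, rose in KO-labelled mice by 0.97 (SE 0.14) and 1.25 (SE 0.26). In WT/Floxed mice their values of 0.29 (SE 0.22) and 0.26 (SE 0.39) did not pass. Ctcf, the insulator factor of the H19 control region, had 0.02 (SE 0.08) and 0.05 (SE 0.08) and was not called. The proliferation markers named above were also higher with LNA29 in KO-labelled mice. Their part in this result was not tested.

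**Figure D3:**
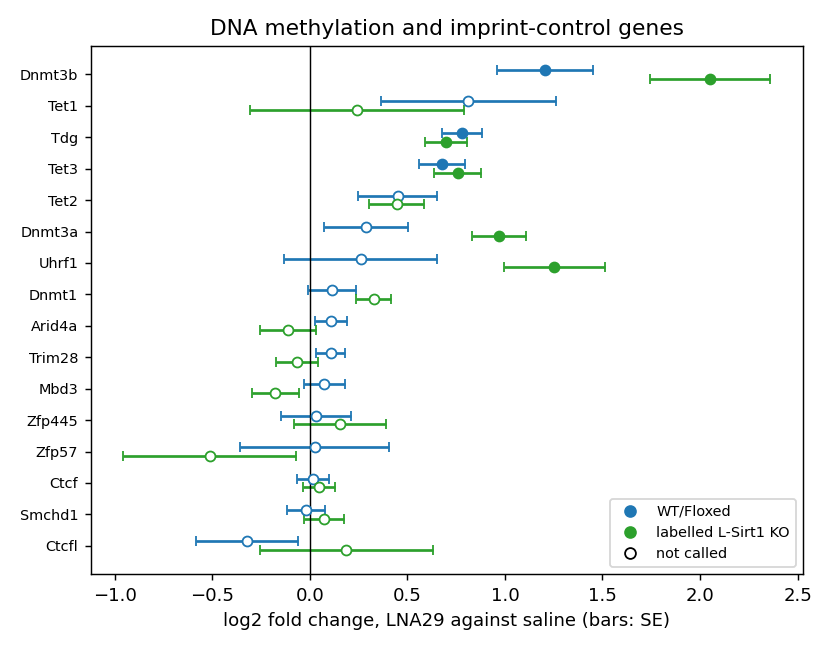
Log2 fold change of LNA29 against saline, with its SE, for the 16 tested genes of DNA methylation and imprint control in WT/Floxed mice (blue) and KO-labelled mice (green), with filled points for genes that passed. Dnmt3b, Tdg and Tet3 passed in both, and Dnmt3a and Uhrf1 in KO-labelled mice.

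Levels are compared between genes only per kilobase of annotated exons. In saline-treated WT/Floxed mice the order was Zhx2 (231 normalized counts per kb), Igf2r (195), Gpc3 (28.9), Peg3 (28.7), Afp (20.1), H19 (10.7), Plagl1 (8.42), Igf2 (6.22), Meg3 (2.48) and Dlk1 (0.328). The level of Zhx2 rests on the steps worth 260 estimated reads described above, so its place in this order is uncertain. Whether such steps raise its level was not tested. Neighbours overlapped between libraries except at 3 places: Igf2r lay above Gpc3, Peg3 above Afp, and Meg3 above Dlk1 in all 5 mice. With LNA29 H19 reached 39.7 ± 10.5 per kb (n = 8) in WT/Floxed mice, between Peg3 (49.7 ± 13.7) and Gpc3 (36.3 ± 21.6), and 97.0 ± 64.0 per kb (n = 4) in KO-labelled mice. Even then H19 was below Igf2r, at 204 and 205 per kb.

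Within groups none of the members stood out in Pearson's r with H19 over all mice. Over the 21 mice, with each value taken as its deviation from its group mean on the log2 scale, Pearson's r with H19 was 0.41 for Afp, 0.17 for Peg3, 0.07 for Meg3, -0.04 for Gpc3, -0.27 for Plagl1, -0.30 for Igf2r, -0.34 for Zhx2 and -0.36 for Igf2. All 8 lay within the range of -0.43 to 0.44 that held 95% of 12758 genes whose mean exceeded 50 in each mouse table. Igf2, Meg3 and Afp did not themselves exceed that mean in each table. By Spearman's rho Zhx2 had -0.46 and stood at place 12485 from the top. By Pearson's r Plagl1 had -0.54 in WT/Floxed mice alone and -0.06 in KO-labelled mice alone. For Igf2r these values were -0.12 and -0.62. The 5 genes most like H19 were Hsbp1l1 (r = 0.815), Klhdc2 (0.78), Cobl (0.74), Gpn3 (0.71) and Mks1 (0.71), and the 5 least like it Gm14421 (-0.75), Rnaseh2b (-0.74), Fmo5 (-0.72), Pak1ip1 (-0.68) and Oxct1 (-0.68). These values are a description over mice that share runs, library factors and the same H19 estimate, and the named genes depended on the mice used. Of the 5 most like genes 0 remained with WT/Floxed mice alone and 1 with KO-labelled mice alone.

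In rats, Peg3 was higher in obese than in lean animals. The ZFR libraries held 81.2, 98.2, 114 and 129 normalized counts and the ZLR libraries 29.4, 31.3, 33.1 and 52.7, higher without overlap, as were 7.8% of genes. The means were 106 ± 20.7 and 36.6 ± 10.8 (SD, n = 4 each), a log2 fold change of 1.52 with an SE of 0.23 (limma adjusted p = 0.0055, exact permutation p = 0.0286, the smallest 4 against 4 libraries can give). Peg3 was the only call among the 4 members tested at an adjusted p under 0.05, which 4.25% of 8633 genes passed (1.8% as higher). The depth was uneven, since 2 of the 4 lean libraries held an estimated 0.188 and 0.189 M reads and rested on 5 and 3 reads of Peg3. Within the run that held the deep lean libraries (768 and 767 reads of Peg3) the difference was 1.68, and within the other it was 1.36. Proliferation markers summed to 11.5 to 35.5 in ZFR against 0 to 11.5 in ZLR, and the groups overlapped. None of these 6 genes reached the minimum mean, and the 2 lean libraries of low depth had 5 and 6 of them at 0. In the deep libraries the sums were 11.5 in ZFR against 8.76 and 11.5 in ZLR. Stellate cell markers summed to 460 to 574 against 344 to 451, and pancreatic acinar markers to 4.18 to 9.41 against 15.2 to 41.8. Some of these markers were also at 0 in the lean libraries of low depth. The part of these marker sums in the Peg3 values was not tested.

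Igf2r held 123, 130, 134 and 160 in ZFR and 73.1, 85.7, 86.3 and 116 in ZLR, higher without overlap, as were 7.8% of genes. The lean values of 73.1 and 116 rested on an estimated 7 and 11 reads. Its log2 fold change of 0.60 (95% interval 0.23 to 0.98, limma adjusted p = 0.0865) did not pass at 0.05. Without the 2 shallow lean libraries, a choice made after seeing the data, it was 0.65 with a limma adjusted p = 0.0335 and passed. Afp (38.8 to 54.3 against 10.5 to 52.2) and Zhx2 (12.4 to 25.1 against 13.5 to 21.1) overlapped and were not called. Igf2, Gpc3, Dlk1 and Plagl1 were under the minimum mean in rats. Of the wider lists, Foxa1 (log2 fold change -1.67, SE 0.38), Afm, a vitamin E-binding relative of albumin (-1.18, SE 0.13), and Igf1, the liver's circulating growth factor (-0.97, SE 0.14), were lower in ZFR, and 0 of 15 imprinted, 0 of 6 fetal, 0 of 10 imprint-control, 0 of 3 H19-neighbouring genes and 0 of 1 glypican passed. The 6 fetal genes had a median of 1.3, against 0.07 over all genes. In the 2 shallow lean libraries 1 read was worth 10.5 and 10.4 normalized counts, so values of low genes are uncertain there. The part of this depth in the median was not tested.

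**Figure D4:**
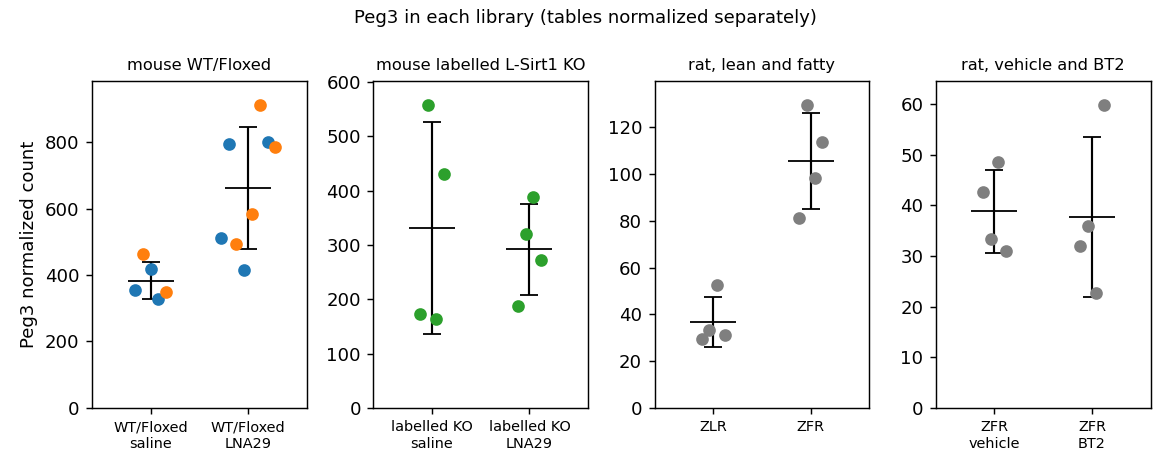
Peg3 normalized count in each library of the 4 tables, each normalized on its own and drawn on its own axis, with points coloured as wild-type (blue), floxed (orange), KO-labelled (green) and rat (grey), and lines and bars for the mean and SD. Peg3 is higher with LNA29 in WT/Floxed mice (662 against 382) and in ZFR against ZLR (106 against 36.6), and the groups overlap in the other 2 panels.

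With BT2, 0 of 4 members tested were called, in a comparison where limma called 0 of 8405 genes (0%) at an adjusted p under 0.05, with 332 at an unadjusted p under 0.05. Peg3 held 22.8, 32.03, 36.0 and 59.8 with BT2 and 31.0, 33.4, 42.6 and 48.6 with vehicle (log2 fold change -0.11, 95% interval -0.78 to 0.57). The intervals for Igf2r (-0.59 to 0.21), Afp (-0.79 to 0.65) and Zhx2 (-0.82 to 3.14) also included 0, and the last rests on 0 to 28.5 normalized counts. None of the wider lists held a call with BT2.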

How the data were processed

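Poly(A)-selected liver RNA was sequenced by the authors, who aligned it with STAR to mm10 or rn6, quantified it with Salmon and normalized it with DESeq2. The deposited values are a signal, normalized counts in 4 tables (2 mouse, 2 rat), each scaled on its own. Whole reads could not be recovered for nearly all genes (69.3% to 90.3% of low values were whole within 0.01), so no count model was run. Depth, estimated by taking the most frequent value above 0 as 1 read, was 42.6 to 78 M reads in mice and 0.188 to 58.5 M in rats, where 1 read was worth up to 10.5 normalized counts. Counting strand is not given in the sources used here, so antisense overlaps cannot be resolved.

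Entries with no name or a repeated name were left out (381 and 130 in each mouse table, 201 and 4523 in each rat table). Genes with a mean of at least 10 were tested in R 4.3.3 with limma 3.58.1 (trend) on log2(normalized count + 1), with Benjamini-Hochberg adjustment over all of them. Mouse calls used the study's criteria, rat calls an adjusted p under 0.05. The fit was tested on simulated data. Genes, exons and RNAs came from GENCODE vM21 (GRCm38, the assembly of mm10), and RefSeq gave the miRNAs. All 10 members, at most 5 called genes of each wider list with the largest change, the 5 genes most and least like H19, and Sirt1 are named, and a gene outside this is marked. Members and lists were chosen with earlier results of these data known. Alternatives were another pseudocount, no minimum, TMM scaling, quality or precision weights, run, background or replicate number in the fit, other call limits and each library left out. 0 columns were left unmatched.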

Additional observations from a re-analysis of the deposited data

Results flagged for a closer look

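In each group of 4 to 8 libraries the highest or lowest value of a member was compared with its neighbour by Dixon's criterion at the 95% level. Of 55 groups screened 4 stood out, and chance alone flags about 1 in 20. Igf2r stood at 2845 normalized counts in 1 WT/Floxed LNA29 library, with the next at 2054, and at 2325 in 1 LNA29 library of a KO-labelled mouse, with the next at 1808. Gpc3 stood at 10.44 in 1 ZLR library, with the next at 1.648, and in that library 1 read was worth 10.4 normalized counts. Peg3 stood at 52.67 in 1 ZLR library, with the next at 33.12, where 1 read was worth 10.5 normalized counts.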

How the results depend on the processing

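H19 was higher with LNA29 under all alternatives run (without each library in turn, 1.77 to 2.04 in WT/Floxed mice and 1.80 to 2.63 in KO-labelled mice). Since H19 was chosen for this rise and its groups did not overlap, leaving out 1 library could not reverse the direction. These H19 values are therefore a description only. Peg3 kept its direction in WT/Floxed mice and in ZFR. Peg3 kept its call in WT/Floxed mice without each library in turn (0.68 to 0.84, adjusted p at most 0.15). It lost the call with a replicate block (0.53, adjusted p = 0.367), at an adjusted p under 0.05 (0.0609), and in wild-type or floxed mice alone, so that 0 members were called under those 4. The replicate numbers do not pair the libraries: in WT/Floxed mice the correlations of same-numbered libraries ran from -0.28 to 0.24, and under the replicate block the calls were 56 in WT/Floxed mice, 145 in KO-labelled mice and 221 in ZFR against ZLR. The cause of these changes was not tested.

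Genes called in WT/Floxed mice numbered 688, and 396 with no minimum, 1308 with quality weights, 206 at an adjusted p under 0.05, 88 in wild-type mice alone and 381 to 1006 without each library. In KO-labelled mice they numbered 297, and 160, 804, 103 with the run as a covariate, 37 at an adjusted p under 0.05 and 77 to 426. In ZFR against ZLR they numbered 367, and 241 with no minimum, 238 with TMM, 1169 with quality weights, 707 by the mouse criteria, 611 with precision weights and 225 to 379, and 2 members passed (Peg3 and Igf2r, 1 to 2 without each library) with either kind of weights, by the mouse criteria, or without the 2 shallow lean libraries. With BT2 1 gene was called with a pseudocount of 10, quality or precision weights or the mouse criteria (0 to 2 without each library). Differences between the responses numbered 7, and 1220 with quality weights (0 to 233 without each library), when 1 member passed (Peg3, -1.16, adjusted p = 0.149). Floxed against wild-type differences numbered 895 (204 to 1194).

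Sign changes were of uncalled values. Igf2 was 0.0752 with quality weights and 0.0271 with the run as a covariate in WT/Floxed mice, and Afp -0.219 with the replicate block and -0.0832 in wild-type mice alone. In floxed mice alone Plagl1 was -0.125, Meg3 0.475 and Zhx2 0.0382. In KO-labelled mice Gpc3 was 0.104 with quality weights and 0.0313 with the run as a covariate, when Peg3 was 0.0541. Afp was 0.0633 with BT2 under precision weights, and the difference between responses was -0.142 for H19, 0.0189 for Igf2r and 0.0041 for Gpc3 with quality weights. Without each library, values crossing 0 ran from -0.19 to 0.14 (Igf2), -0.0647 to 0.135 (Afp), -0.0425 to 0.0898 (Igf2r) and -0.0338 to 0.344 (Gpc3) in WT/Floxed mice. In KO-labelled mice they ran from -0.29 to 0.29 (Peg3), -0.17 to 0.34 (Meg3), -0.0676 to 0.0837 (Igf2r), -0.17 to 0.51 (Igf2), -0.32 to 0.14 (Afp) and -0.40 to 0.23 (Gpc3). With BT2 they ran from -0.28 to 0.10 (Afp) and -0.35 to 0.10 (Peg3). The difference between responses ran from -0.0704 to 0.752 (H19), -0.112 to 0.0735 (Igf2r), -0.15 to 0.53 (Igf2), -0.35 to 0.10 (Afp) and -0.561 to 0.0715 (Gpc3), and floxed against wild-type from -0.32 to 0.36 (Meg3). By Spearman's rho 3 of the 5 genes most like H19 and 2 of the 5 least like it remained, 0 and 0 in WT/Floxed mice alone and 1 and 0 in KO-labelled mice alone. The replicate block was not run for the difference between responses.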

Other observations

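Dio3, the thyroid hormone-inactivating deiodinase at the far end of the Dlk1 and Meg3 domain, was named after its values were seen. WT/Floxed livers held 29.5 ± 12.8 normalized counts of it under LNA29 (SD, n = 8) and 12.0 ± 6.77 under saline (SD, n = 5). The log2 difference of 1.33 (SE 0.37, limma adjusted p = 0.103) was no call because the mean lay under 50. KO-labelled livers held 21.1 ± 5.24 and 12.7 ± 4.18 (SD, n = 4 each), a difference of 0.70 (SE 0.32, limma adjusted p = 0.461).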
